A study of Mus musculus with 9 samples.

Results

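The receptors for noradrenaline, acetylcholine, serotonin, dopamine and histamine were examined in the dorsal lateral geniculate nucleus (dLGN) of young mice brought from darkness into light. They were chosen by gene symbol (Adra, Adrb, Chrm, Chrn, Htr, Drd and Hrh genes), and 48 of the 20707 genes in the deposited tables matched. These were 47 receptor genes and Chrna1os, an antisense transcript. The receptor genes comprised 9 adrenergic, 5 muscarinic, 12 nicotinic, 13 serotonin, 5 dopamine and 3 histamine receptor genes.

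All animals were wild-type C57BL/6J mice aged P27 (postnatal day 27), male and female, that had been dark-reared from P20 to P27. They received light for 0 h (the dark baseline), 1 h or 8 h, and the labels do not say which libraries are male or female. Each light time had 3 libraries of total RNA depleted of ribosomal RNA, stated to come from 3 mice processed as independent samples. The study compared 1 h and 8 h with 0 h, so both comparisons share the 0 h libraries.

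The dLGN passes retinal signals to visual cortex, and its neurons receive diffuse input from the brainstem and hypothalamus. Noradrenaline, acetylcholine, serotonin and histamine released there change thalamic neurons between tonic and burst firing with arousal. Most of these receptors couple to G proteins of the Gs, Gq or Gi class, whereas nicotinic receptors and the serotonin receptor Htr3a are ion channels opened by the transmitter.

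The 2 receptor genes called higher after 8 h of light, at an adjusted p under 0.05, were Hrh3 and Adrb1. Sequence upstream of each is shown for that reason. Neither call held in every fit, with Hrh3 called in 15 of 19 fits and Adrb1 in 10 of 19. Hrh3 (Entrez gene 99296, minus strand) lies at chr2:180099465-180104407 with 3 exons, and Adrb1 (Entrez gene 11554, plus strand) at chr19:56722372-56724862 with 1 exon, in the GRCm38 coordinates of the deposited tables. The deposited annotation marks Hrh3 as not coding, although the gene encodes a receptor. Each window covers the 150 bases from 250 to 101 bases before the RefSeq start, on GRCm38.p6, read 5′ to 3′ on the gene's strand, and no annotated exon overlaps it. For Adrb1 the RefSeq start lies upstream of the deposited start, so its window is farther from the deposited gene. Capitals mark the motifs found on either strand, which were the GC box (GGGCGG), the CCAAT box (CCAAT) and the EGR motif (GCGNGGGCG).
Hrh3, chr2:180104508-180104657, minus strand: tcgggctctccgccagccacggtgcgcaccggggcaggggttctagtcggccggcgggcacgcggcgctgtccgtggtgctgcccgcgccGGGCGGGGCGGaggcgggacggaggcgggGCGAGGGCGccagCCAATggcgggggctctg
Adrb1, chr19:56721867-56722016, plus strand: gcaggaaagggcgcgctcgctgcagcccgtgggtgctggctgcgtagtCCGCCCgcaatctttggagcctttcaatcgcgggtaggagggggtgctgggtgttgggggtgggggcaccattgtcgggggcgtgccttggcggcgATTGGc

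The Hrh3 window held 2 GC boxes that overlap each other, 1 CCAAT box and 1 EGR match. The Adrb1 window held 1 GC box and 1 CCAAT box, both on the opposite strand. Of 27025 RefSeq windows of the same length and position, 16.5% held a GC box, 20.2% a CCAAT box and 1.73% an EGR match. Neither window held the cAMP response element TGACGTCA, its part TGACG, the AP-1 motif TGANTCA or the E-box CACGTG. These motifs were in 0.381%, 8.26%, 4.13% and 2.92% of all windows. Both windows were rich in G and C, at 80.7% for Hrh3 and 68.7% for Adrb1, against a median of 50.7% over all windows.

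Depth and tissue set the limits of these values. The shallowest library, 0 h replicate 1, held 5.73 M counts and the deepest, 8 h replicate 1, 22.6 M. In these, 3 reads corresponded to 0.509 and 0.136 CPM (counts scaled to library size). The floor of 3 reads covers counting error only. All 11 thalamic relay neuron markers examined, among them Slc17a6 and Tcf7l2, were detected in every library, with a summed level between 6331 and 7139 CPM. RNA of neighbouring tissue was not equal between libraries, as given beside the muscarinic receptors. The tissue was bulk, so fewer cells of a type and less RNA per cell cannot be told apart.

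Per kilobase of exon, the scale on which genes can be compared, the nicotinic family had the highest summed level, at 104 CPM per kb (mean of 9 libraries). The adrenergic family followed at 84.3 and the histamine family at 67.0 CPM per kb. The serotonin, muscarinic and dopamine families were lower, at 23.1, 15.3 and 9.10 CPM per kb. The 2 highest genes carried between 62.7% (adrenergic) and 97.7% (histamine) of a family's level. Hrh3 made up 93.2% of the histamine receptor level, and Chrna4 with Chrnb2 89.5% of the nicotinic level.

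By single gene, the order per kb was Hrh3 at 62.5 ± 11.6 (SD, n = 9), Chrna4 at 58.7 ± 4.93, Adra1b at 35.2 ± 2.95 and Chrnb2 at 34.2 ± 1.91 CPM per kb. Hrh3 and Chrna4 lay within each other's spread, as did Adra1b and Chrnb2. The place of Hrh3 rested on the 8 h libraries, with means of 54.5, 56.0 and 76.9 CPM per kb at 0, 1 and 8 h against 59.6, 56.2 and 60.4 CPM per kb for Chrna4. Adrb1 came next at 17.7 ± 2.54 and Adra1d at 14.7 ± 3.60 CPM per kb, again within their spread. On this scale Hrh3 was at percentile 96.8 of the 19703 genes in both sets of tables and Adrb1 at percentile 83.1. At the other end, 13 members were under the floor of 3 reads in at least 1 library, and the same 13 did not pass the low-count filter. They were Chrna1, Chrna1os, Chrna5, Chrna10, Chrnb1, Chrnb4, Chrne, Htr1f, Htr2b, Htr3a, Htr5b, Drd4 and Adrb3. The other 35 of the 48 members passed it in each comparison.

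**Figure D1:**
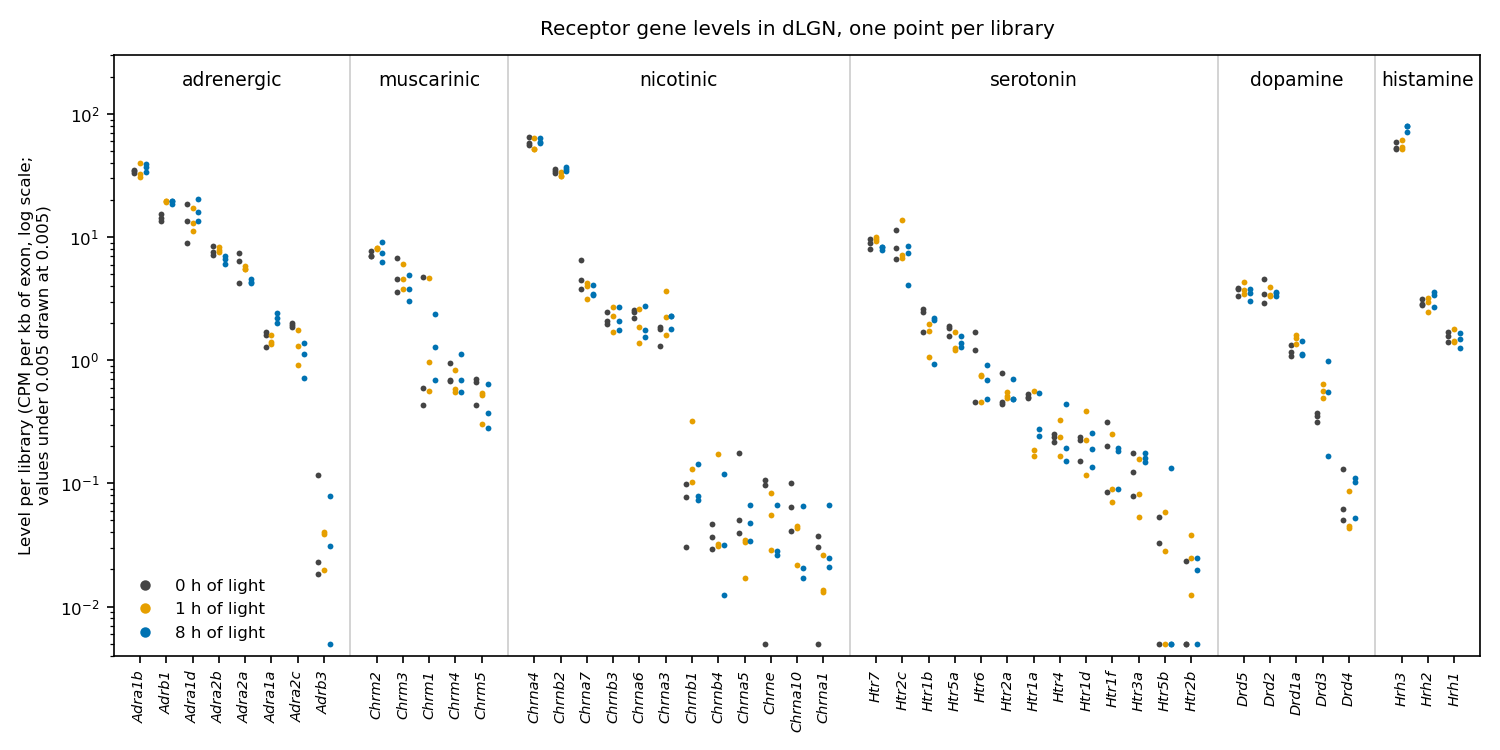
Level of the receptor genes reported here in each of 9 libraries (y axis, CPM per kb of exon, log scale), grouped by family and coloured by light time, with values under 0.005 drawn at 0.005. Hrh3, Chrna4, Adra1b and Chrnb2 have the highest means, and the spread within a light time is wide for the genes of low level.

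After 8 h of light 1 histamine and 1 adrenergic receptor were called higher, and no member passed the test in the other direction. In edgeR's quasi-likelihood test with Benjamini-Hochberg adjustment over all genes, 2 of 35 tested members were called at 8 h against 0 h at an adjusted p under 0.05. Over all 15330 genes tested the share called was 0.587%. At 1 h against 0 h none of 35 members was called, with 0.0132% of 15164 genes called. At an unadjusted p under 0.05 there were 5 members at 1 h (all genes 3.2%) and 7 at 8 h (all genes 10.2%), and DESeq2 called 0 members at 1 h. Between 8 h and 1 h, in a fit of all 9 libraries, 1 of 35 members was called, with 0.603% of 15586 genes called, and 6 had an unadjusted p under 0.05 (all genes 8.9%).

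The median log2 fold change over the 35 tested members was -0.04 at 1 h and -0.08 at 8 h. Over all genes tested it was 0.00 in both comparisons. At 8 h 15 members lay above 0 and 20 below, where 48.7% of all genes tested lay above 0. The fold changes ran from -0.86 for Adra2c to 0.68 for Drd3, neither of which passed the test.

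**Figure D2:**
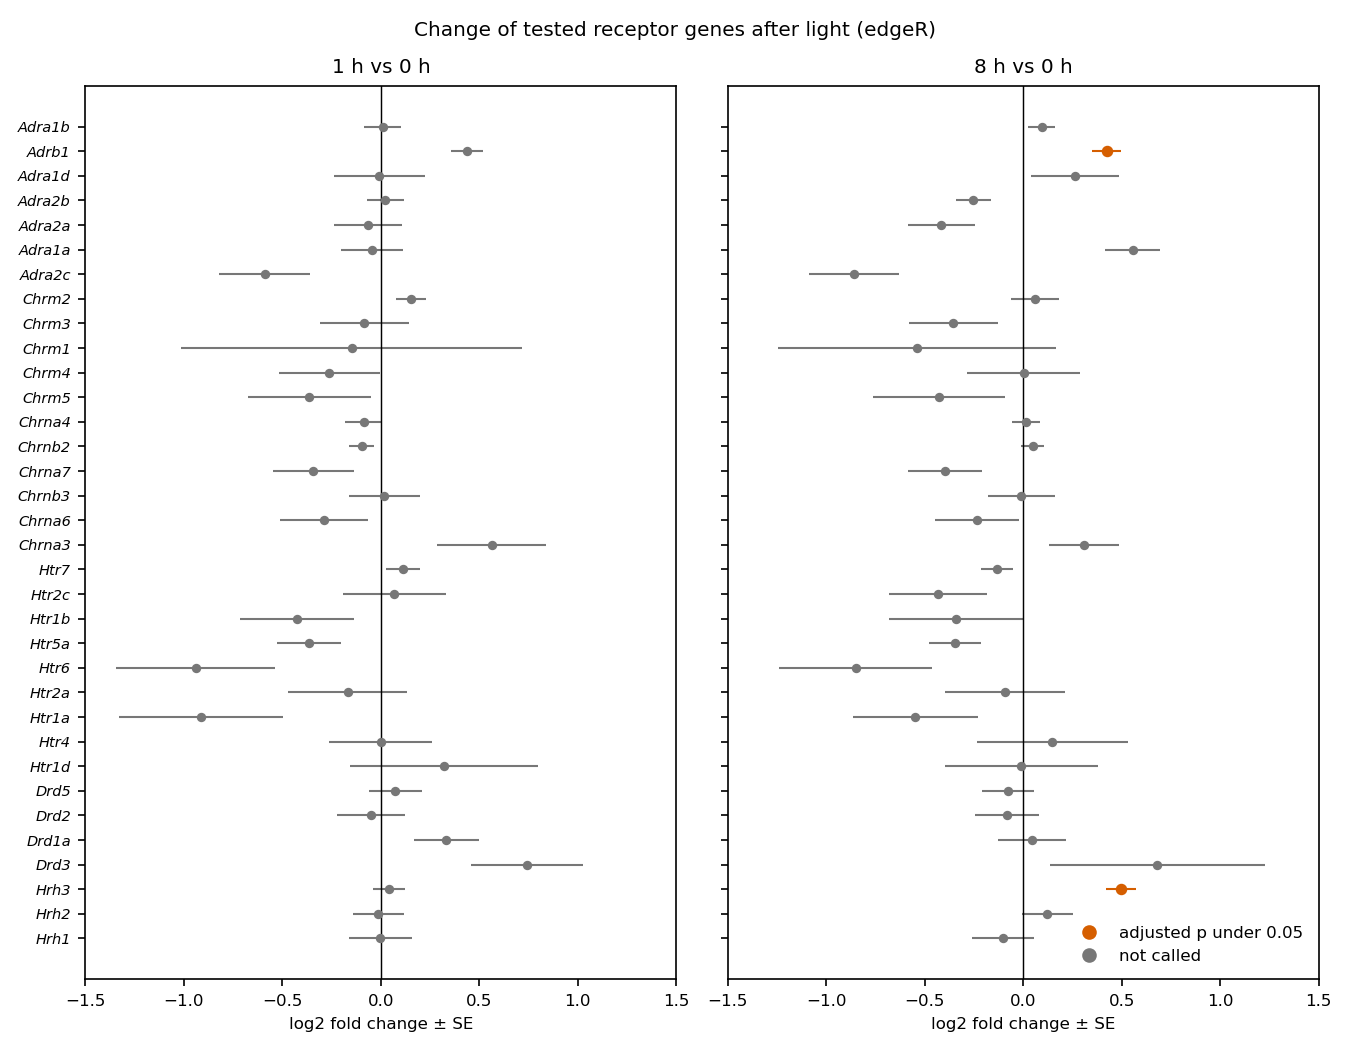
Log2 fold change ± SE of the tested receptor genes reported here at 1 h against 0 h (left) and 8 h against 0 h (right), grouped by family. Orange points mark Hrh3 and Adrb1 at 8 h, the genes with an adjusted p under 0.05, and the comparisons share the 0 h libraries.

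The histamine receptors differed within the family. Hrh3 encodes the Gi-coupled H3 receptor, found on histamine neurons as an autoreceptor and on the terminals and cell bodies of many other neurons. Its level was 155, 136 and 138 CPM in the 0 h libraries, 137, 161 and 143 CPM at 1 h, and 187, 211 and 208 CPM at 8 h. The 3 libraries at 8 h were above every other library, whereas those at 1 h and 0 h overlapped. Hrh3 rose by 0.50 ± 0.07 (log2 ± SE, edgeR adjusted p = 0.0161) at 8 h against 0 h, a 1.41-fold difference. At 1 h its difference from 0 h was 0.04 ± 0.08 (edgeR adjusted p = 1.00). Between 8 h and 1 h it rose by 0.45 ± 0.08 (log2 ± SE, edgeR adjusted p = 0.0214). In the authors' deposited table the fold for Hrh3 at 8 h was 1.42 with an FDR of 1.78e-05.

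The Hrh3 call at 8 h against 0 h was lost without 0 h replicate 3 (adjusted p = 0.0589), 8 h replicate 2 (0.116) or 8 h replicate 3 (0.0689), with log2 fold changes between 0.46 and 0.56 whichever library was left out. It was also lost with the level of the X-inactivation transcript Xist as a covariate (0.47, adjusted p = 0.0625). The summed thalamic relay markers were 6331, 6478 and 6602 CPM at 0 h and 7079, 6770 and 7127 CPM at 8 h, so they too were higher in every 8 h library. Their median log2 fold change at 8 h was 0.04, and 4 of 11 had an unadjusted p under 0.05, none of them called. The part of these relay markers in the Hrh3 result was not tested. The 12 markers of GABA neurons summed to 506, 176 and 422 CPM at 0 h, 333, 365 and 219 CPM at 1 h and 567, 402 and 358 CPM at 8 h, overlapping between all light times. Their median log2 fold change was 0.65 between 8 h and 1 h and 4 of 11 tested had an unadjusted p under 0.05, none of them called, and their part in the Hrh3 difference was not tested. GENCODE exons of Hrh3 share 349 bases with Gm17180 on the opposite strand, beside a deposited exonic length of 2625 bases. The sources used here do not say whether counting used strand. Exons of Drd5, Htr1b, Adra1d, Chrm1, Chrm2, Hrh2, Chrna10, Htr2b and Adrb3 also overlap another annotated gene, by 142 (Chrm2) to 1531 bases (Drd5).

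Hrh2, the Gs-coupled H2 receptor, had 12.2, 12.4 and 13.6 CPM at 0 h, 10.7, 13.0 and 14.1 CPM at 1 h and 11.7, 14.8 and 15.5 CPM at 8 h. The 3 light times overlapped, and its log2 fold change at 8 h was 0.12 ± 0.13 (edgeR adjusted p = 0.812). Hrh1, the Gq-coupled H1 receptor, lay between 5.62 and 8.15 CPM over the 9 libraries. Its log2 fold change was -0.10 ± 0.16 (edgeR adjusted p = 0.879) at 8 h.

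Among the adrenergic receptors, Adrb1 encodes the Gs-coupled beta1 receptor, through which noradrenaline raises cAMP. Its level was 38.2, 33.5 and 35.9 CPM at 0 h, 47.7, 48.8 and 48.9 CPM at 1 h, and 46.6, 48.6 and 48.9 CPM at 8 h. Every library after light was above every 0 h library, and 1 h and 8 h overlapped. Adrb1 rose by 0.42 ± 0.08 (log2 ± SE, edgeR adjusted p = 0.0376) at 8 h against 0 h. The difference at 1 h was of the same size, 0.44 ± 0.08 (log2 ± SE, p = 0.000239), but did not pass the adjusted threshold in edgeR's quasi-likelihood test (adjusted p = 0.259). edgeR's exact test called it, at an adjusted p of 0.0224. Between 8 h and 1 h the difference was -0.02 ± 0.07 (edgeR adjusted p = 0.964). In the authors' deposited table Adrb1 had an FDR of 0.0624 at 1 h and 0.00340 at 8 h.

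The Adrb1 call at 8 h was lost whichever of the 6 libraries was left out, with adjusted p between 0.0585 and 0.217 and log2 fold changes between 0.37 and 0.47. Without 0 h replicate 2, which held the most RNA of cortical or hippocampal type, it was 0.37 (adjusted p = 0.0970). With library totals in place of TMM scaling it was 0.40 (adjusted p = 0.0671), and with the Xist covariate 0.43 (adjusted p = 0.0886). The 8 microglia markers summed to 281, 271 and 265 CPM at 0 h, 253, 250 and 258 CPM at 1 h and 254, 243 and 234 CPM at 8 h. They were thus lower in every library after light, with none of them called. Of 9 astrocyte markers, 1 was called at 8 h, Fgfr3 (log2 0.36, edgeR adjusted p = 0.0274), and their median was 0.03. The part of these markers in the Adrb1 result was not tested. Adrb3, the beta3 receptor, was under the floor in 8 of 9 libraries.

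The alpha1 receptors couple to Gq. Adra1b, the most abundant adrenergic receptor per kb, had 126, 118 and 123 CPM at 0 h, 117, 142 and 111 CPM at 1 h and 139, 121 and 132 CPM at 8 h. These overlapped, and the log2 fold change at 8 h was 0.09 ± 0.07 (edgeR adjusted p = 0.698). Adra1a had 9.50, 7.14 and 9.07 CPM at 0 h, 7.59, 9.06 and 7.86 CPM at 1 h and 12.5, 13.5 and 11.3 CPM at 8 h. Its 8 h libraries were above all others, yet the log2 fold change of 0.56 ± 0.14 at 8 h against 0 h was not called (edgeR adjusted p = 0.134). Between 8 h and 1 h it was 0.59 ± 0.13 (edgeR adjusted p = 0.0812), and there DESeq2 (adjusted p = 0.0387) and edgeR's exact test (adjusted p = 0.0134) called it.

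The alpha2 receptors, Gi-coupled and known as autoreceptors on noradrenergic terminals, had values below 0 for all 3 genes at 8 h, and none passed the test. Adra2c had 5.94, 6.17 and 6.42 CPM at 0 h, 5.66, 4.18 and 2.91 CPM at 1 h and 2.31, 4.46 and 3.61 CPM at 8 h. Every library after light was below every 0 h library. Its log2 fold change was -0.59 ± 0.23 (edgeR adjusted p = 1.00) at 1 h and -0.86 ± 0.23 (edgeR adjusted p = 0.164) at 8 h. The authors' deposited table gave Adra2c at 8 h a fold of 0.555 and an FDR of 0.0487. Adra2b had 29.9, 33.4 and 28.4 CPM at 0 h, 30.7, 29.8 and 33.1 CPM at 1 h and 24.0, 27.4 and 26.1 CPM at 8 h. Its 8 h libraries were below all others, with a log2 fold change of -0.25 ± 0.09 (edgeR adjusted p = 0.352) against 0 h. Adra2a stood at -0.42 ± 0.17 (log2 ± SE, edgeR adjusted p = 0.435) at 8 h, and was called lower in the fit without 0 h replicate 2, at -0.64 (edgeR adjusted p = 0.0288).

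**Figure D3:**
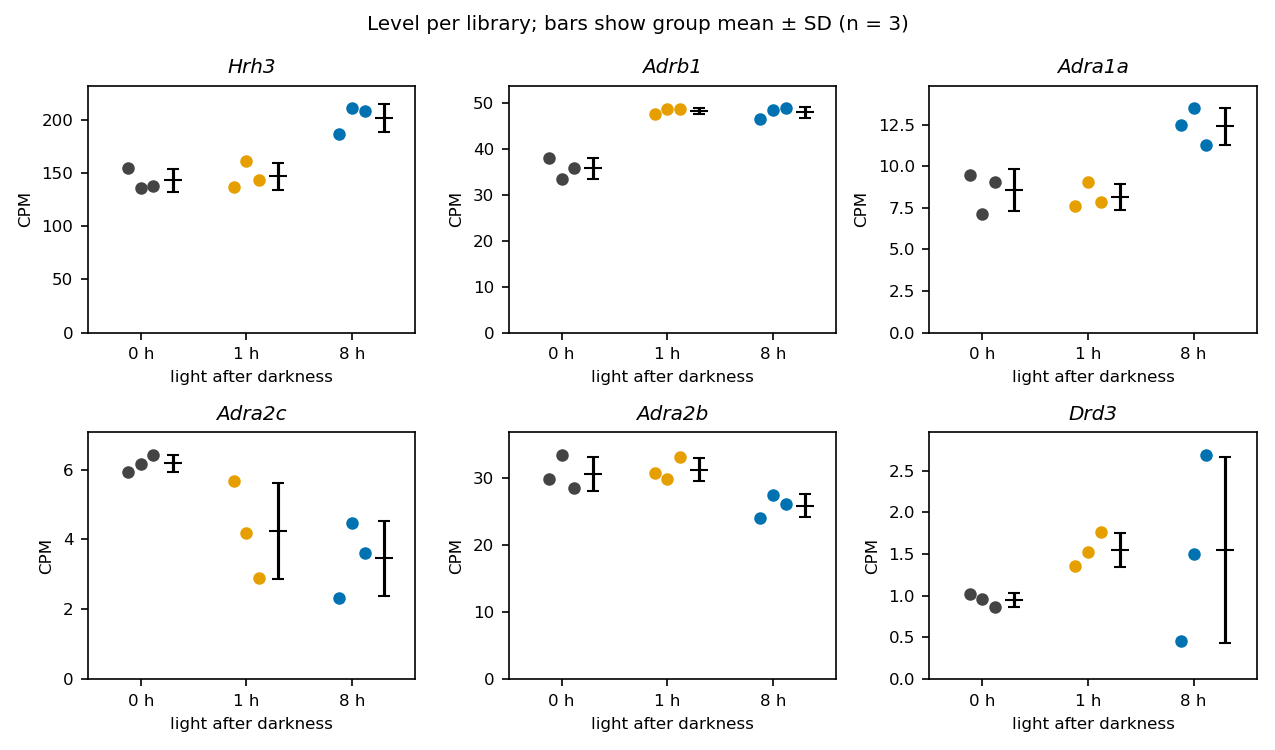
Level in each library (y axis, CPM from 0) by hours of light for Hrh3, Adrb1, Adra1a, Adra2c, Adra2b and Drd3, with the group mean ± SD (n = 3) beside the points. Hrh3 and Adra1a separate the 8 h libraries from the others, Adrb1 separates 0 h from both light times, and the low gene Drd3 spreads widely at 8 h.

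Over the 35 tested members, groups without overlap were found for 5 at 1 h against 0 h (all genes 8.69%) and for 5 at 8 h against 0 h (all genes 16.1%). Between 8 h and 1 h there were 6 (all genes 15.3%). At 8 h against 0 h these were Hrh3, Adrb1 and Adra1a above, and Adra2b and Adra2c below, so the share of members was 14.3%, close to that of all genes.

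Of the muscarinic receptors, Chrm2, the Gi-coupled M2 receptor, was highest per kb at 7.68 ± 0.85 CPM per kb (SD, n = 9). It had 42.6, 46.6 and 42.6 CPM at 0 h, 48.8, 49.1 and 49.2 CPM at 1 h and 55.6, 44.6 and 37.9 CPM at 8 h. The 1 h libraries were above the 0 h libraries and the 8 h libraries spread across both. Neither difference from 0 h was called, at 0.15 ± 0.08 (log2 ± SE, edgeR adjusted p = 1.00) for 1 h and 0.06 ± 0.12 (edgeR adjusted p = 0.921) for 8 h. Chrm4 and Chrm5 stayed between 1.14 and 4.12 CPM.

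Chrm3, the Gq-coupled M3 receptor, had 21.4, 31.5 and 16.7 CPM at 0 h, 28.3, 21.2 and 17.8 CPM at 1 h and 23.2, 17.8 and 14.1 CPM at 8 h. Its spread within a light time was larger than the differences between them, with a log2 fold change of -0.35 ± 0.23 (edgeR adjusted p = 0.647) at 8 h. Chrm1, the M1 receptor abundant in cortex and hippocampus, was chosen here after its values were seen. It had 3.73, 29.9 and 2.71 CPM at 0 h, 29.1, 3.53 and 6.10 CPM at 1 h and 8.11, 15.1 and 4.35 CPM at 8 h. The high libraries were 0 h replicate 2 and 1 h replicate 1, followed by 8 h replicate 2.

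These libraries also held the most RNA of cortical and hippocampal pyramidal markers. All 12 genes of that list were in the tables, and Prox1, at 191 to 229 CPM in every library, was set aside after its values were seen. The other 11, summed, reached 36.6, 194 and 39.5 CPM at 0 h, 175, 39.8 and 50.6 CPM at 1 h and 72.6, 119 and 42.1 CPM at 8 h. Neurod6, a defining marker, was at 18.2 CPM in 0 h replicate 2, 13.8 in 1 h replicate 1 and 3.62 in 8 h replicate 1, and between 0.228 and 0.728 CPM elsewhere. Emx1 and Fezf2 were at 0 in some libraries. Adra1d, the alpha1D receptor, also chosen after its values were seen, had 32.2, 44.8 and 21.5 CPM at 0 h, 41.2, 31.5 and 27.1 CPM at 1 h and 48.5, 38.1 and 32.6 CPM at 8 h. It was highest in 8 h replicate 1 and then in the same 0 h replicate 2 and 1 h replicate 1. The part of this RNA in the muscarinic and Adra1d levels was not tested. By the sum of the 11 markers, the library with most pyramidal RNA had the lowest Hrh3 of its group at 0 h and 1 h and the highest at 8 h. By Neurod6 the top 8 h library was instead replicate 1, which had the lowest Hrh3 of its group, 187 CPM. The part of this RNA in the Hrh3 level was not tested. Without 0 h replicate 2 the Hrh3 difference at 8 h was 0.46 (edgeR adjusted p = 0.0320).

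**Figure D4:**
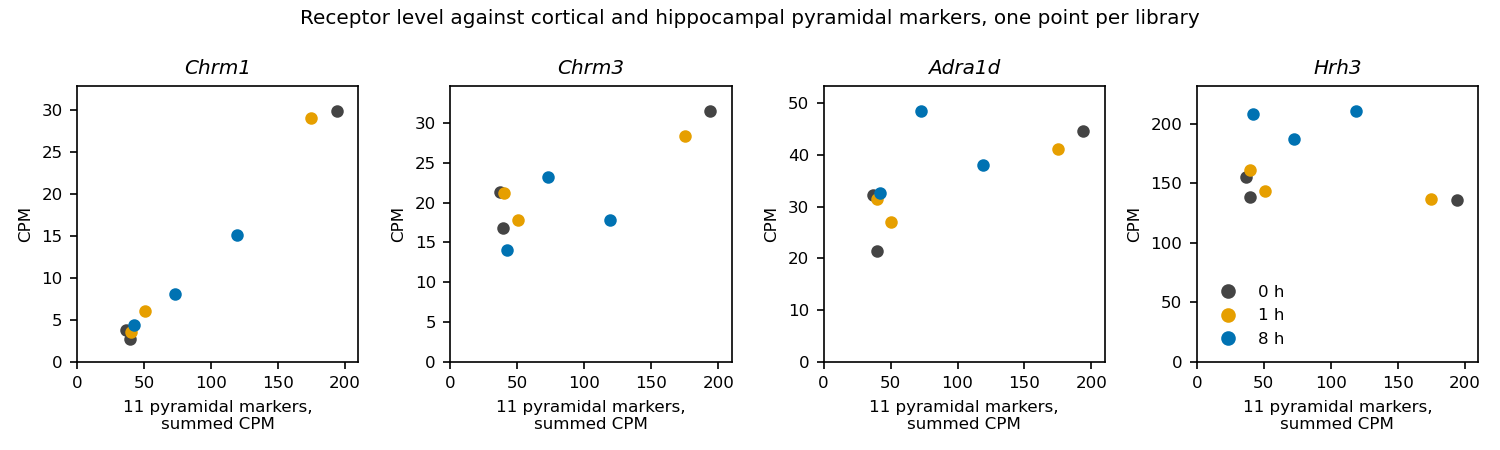
Level of Chrm1, Chrm3, Adra1d and Hrh3 (y axis, CPM) against the summed CPM of 11 pyramidal neuron markers (x axis, Prox1 left out), with a point per library coloured by light time. Chrm1 is highest in the libraries at 194 and 175 CPM of markers, whereas the 3 highest libraries for Hrh3 are those of 8 h.

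The nicotinic receptors were carried by the subunits of the common brain receptor made of alpha4 and beta2. Chrna4 had 299, 269 and 260 CPM at 0 h, 243, 298 and 239 CPM at 1 h and 297, 268 and 274 CPM at 8 h. Chrnb2 had 202, 195 and 190 CPM at 0 h, 178, 192 and 180 CPM at 1 h and 212, 194 and 204 CPM at 8 h. Both overlapped between 8 h and 0 h, with log2 fold changes of 0.01 ± 0.07 (edgeR adjusted p = 0.970) and 0.05 ± 0.06 (edgeR adjusted p = 0.843). The ratio of Chrna4 to Chrnb2 per kb was 1.72 ± 0.09 (SD, n = 9) and stayed between 1.63 and 1.90. For Chrnb2 the 8 h libraries were above the 1 h libraries, at 0.14 ± 0.06 (log2 ± SE, edgeR adjusted p = 0.443), which was not called.

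Chrna7, which forms receptors of a single subunit type, ranged from 6.61 to 13.7 CPM, and its log2 fold change at 8 h was -0.40 ± 0.19 (edgeR adjusted p = 0.513). Chrna6 and Chrnb3, subunits known from retinal ganglion cells and dopamine neurons, ranged from 4.05 to 8.06 CPM and from 7.86 to 12.6 CPM. Chrna3, a subunit of the medial habenula and autonomic ganglia, ranged from 4.07 to 11.4 CPM and was highest in 1 h replicate 3. That library also had the highest summed habenula markers, 138 CPM against 70.3 to 131 CPM in the others, most of it Calb2 at 100.3 CPM. Calb2, Gpr151 (0.684 CPM) and Wif1 (1.37 CPM) were highest in that library, whereas Gng8 at 1.42 CPM was lowest there. Nwd2, Lrrc55, Irx2, Tac1 and Pou4f1 stood there at 9.74, 17.8, 5.98, 0.513 and 0.228 CPM. Their highest values, in other libraries, were 28.0, 18.2, 7.63, 1.72 and 0.596 CPM. The part of these markers in the Chrna3 level was not tested. The other 6 nicotinic subunits were too low to test.

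Among the serotonin receptors, Htr7 (Gs-coupled) and Htr2c (Gq-coupled) were highest per kb, at 8.92 ± 0.81 and 8.26 ± 2.87 CPM per kb (SD, n = 9). Htr7 had 33.1, 40.1 and 36.9 CPM at 0 h, 38.3, 41.7 and 40.1 CPM at 1 h and 34.8, 34.4 and 32.6 CPM at 8 h. Its 8 h libraries lay below its 1 h libraries, and that difference of -0.25 ± 0.08 (log2 ± SE) was not called (edgeR adjusted p = 0.299). Htr2c had 31.4, 39.1 and 54.7 CPM at 0 h, 34.2, 32.4 and 65.9 CPM at 1 h and 19.6, 35.5 and 40.2 CPM at 8 h. The light times overlapped, and the log2 fold change of -0.43 ± 0.25 at 8 h was not called (edgeR adjusted p = 0.608).

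Of the 9 serotonin receptor genes tested, 8 lay below 0 at 8 h and none was called, the median log2 fold change being -0.34. Htr5a, a Gi-coupled receptor, had an unadjusted p under 0.05 in both comparisons with 0 h, at -0.37 ± 0.16 (log2 ± SE, edgeR adjusted p = 1.00) at 1 h and -0.35 ± 0.13 (edgeR adjusted p = 0.379) at 8 h. Htr6 and Htr1a were near 1 or 2 CPM, and their 1 h values of -0.94 ± 0.40 and -0.91 ± 0.42 (log2 ± SE, edgeR adjusted p = 1.00 for each) rested on 4 to 47 reads a library. The other genes tested, Htr1b, Htr1d, Htr2a and Htr4, lay between 0.412 and 3.49 CPM, and the 4 not tested were Htr1f, Htr2b, Htr3a and Htr5b.

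The dopamine receptors were the lowest family per kb. Drd5, a Gs-coupled receptor of the D1 class, had 10.9, 10.6 and 9.33 CPM at 0 h, 10.4, 12.1 and 9.74 CPM at 1 h and 10.7, 8.48 and 9.96 CPM at 8 h. Its GENCODE exons share 1531 bases with Gm26560 on the opposite strand, beside a deposited exonic length of 2802 bases. Without strand, reads within the shared bases cannot be told apart. Drd2, the Gi-coupled D2 receptor, had 9.50, 8.05 and 12.4 CPM at 0 h, 10.8, 9.36 and 9.17 CPM at 1 h and 9.06, 9.66 and 9.78 CPM at 8 h. Both overlapped between light times, with log2 fold changes at 8 h of -0.08 ± 0.13 (edgeR adjusted p = 0.899) and -0.08 ± 0.16 (edgeR adjusted p = 0.915). Drd3, the D3 receptor, had 1.02, 0.966 and 0.860 CPM at 0 h, 1.36, 1.53 and 1.77 CPM at 1 h and 0.453, 1.503 and 2.69 CPM at 8 h, from 6 to 47 reads a library. Its 1 h libraries were above its 0 h libraries and its 8 h libraries enclosed both. The log2 fold change at 1 h was 0.74 ± 0.28 (edgeR adjusted p = 1.00). Drd1a, the deposited symbol of the D1 receptor, ranged from 4.70 to 6.88 CPM, with its 1 h libraries above its 0 h libraries at 0.33 ± 0.16 (log2 ± SE, edgeR adjusted p = 1.00). Drd4 was under the floor in 5 of 9 libraries.

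By signalling class, chosen with the values known, the summed level of the 9 Gs-coupled receptors was 33.2 ± 0.49 CPM per kb (SD, n = 3) at 0 h, 38.9 ± 1.1 at 1 h and 37.1 ± 0.53 at 8 h, and Adrb1 was its largest member. The 15 Gi-coupled receptors summed to 87.3 ± 5.09, 87.5 ± 4.82 and 105 ± 5.51 CPM per kb, and Hrh3 was their largest member. Of the 12 Gi-coupled genes tested at 8 h, Hrh3 was called, 4 lay above 0 and 8 below, and the median was -0.17 on the log2 scale. The Gq-coupled receptors, at 67.9 ± 6.75 CPM per kb at 0 h and 70.0 ± 3.60 at 8 h, and the channel subunits, at 106 ± 6.37 and 107 ± 5.15, differed by less than their spread.

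The other genes of these pathways were counted in 5 lists, and no gene of any list was called in any comparison. Of 20 measured genes of transmitter synthesis, transport and breakdown, 13 were tested, and their median was -0.11 on the log2 scale at 8 h. Among the enzymes of monoamine synthesis, Th, Dbh and Tph2 were at or under 0.353 CPM in every library and Tph1 at or under 0.752 CPM. Ddc, the decarboxylase shared by dopamine and serotonin synthesis, was between 8.72 and 12.02 CPM, and Hdc, which makes histamine, between 1.40 and 3.06 CPM. Ache, which breaks down acetylcholine, was between 83.4 and 114 CPM.

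Lypd6 and Ppp1r1b were chosen as the smallest p of their lists at 8 h. Among 11 chaperones and Ly6 proteins of receptors, Lypd6, which modulates nicotinic receptors, stood at -0.70 ± 0.15 (log2 ± SE, edgeR adjusted p = 0.0804) at 8 h, and Lynx1, another such protein, at 0.06 ± 0.05 (edgeR adjusted p = 0.749). Among 28 genes of cAMP and phospholipase C signalling, Ppp1r1b, the phosphatase inhibitor DARPP-32, had 11.7, 18.1 and 10.5 CPM at 0 h and 24.1, 24.0 and 27.9 CPM at 8 h. That difference was 0.87 ± 0.18 (log2 ± SE, edgeR adjusted p = 0.0667). Pde4b, a phosphodiesterase of cAMP, stood at -0.31 ± 0.06 (edgeR adjusted p = 0.0683). Of the G protein alpha subunits, 10 were tested with a median of -0.07 at 8 h, and of the arrestins and receptor kinases 7 with a median of 0.10. Over all genes tested the median was 0.00.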

How the data were processed

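The authors deposited raw counts of reads per gene for each library, whole numbers without normalization. They also give a density per library, a signal in which the authors divided counts by exonic length and library constants, and which was not tested here. The authors' fold (ratio of light over 0 h), p-value and FDR are quoted only as theirs, and the authors' mean CPM was not used. BWA, edgeR 3.14.0 and GRCm38 (mm10) are named, without their roles, per the submitters' processing notes. The sources used here name no counting program, annotation or strand setting (not given in the sources used here).

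CPM used library totals of the deposited counts scaled by TMM, and CPM per kb the deposited exonic lengths. Tests were two-sided, by edgeR 4.0.16 (glmQLFit and glmQLFTest, package defaults, filterByExpr) in R 4.3.3, over all genes, with a Benjamini-Hochberg threshold of 0.05. The comparisons of 1 h and 8 h with 0 h used their own 6 libraries, and 8 h against 1 h all 9. The test was tested on simulated data. DESeq2 1.42.0, limma 3.58.1 and other settings were alternatives. Replicates differed by a chi-square per gene of 4.94 to 22.8 over counting noise, so none was counted as a duplicate. Total counts per library were 5.73 to 22.6 M.

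Genes given in every library were those called, the 3 with the smallest p in each comparison, and the 2 highest per kb of each family. The members and lists were chosen with earlier results of these data known. Promoter windows came from RefSeq (GRCm38.p6), and exon overlaps from GENCODE. Single values of a few genes are not reported here, although counts and sums over all members and lists include them.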

Additional observations from a re-analysis of the deposited data

Results flagged for a closer look

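The difference of Hrh3 between 8 h and 1 h of light was 0.45 ± 0.08 (log2 ± SE, edgeR adjusted p = 0.0214), higher in 3 of 3 libraries at 8 h than in every library at 1 h. It was flagged because the difference between the light times was itself tested and called, where 0.603% of 15586 genes were called. The other 34 tested members were not called there. Adra1a differed by more, at 0.59 ± 0.13 (log2 ± SE, edgeR adjusted p = 0.0812), also in 3 of 3 libraries. DESeq2 (adjusted p = 0.0387) and edgeR's exact test (adjusted p = 0.0134) called Adra1a. The Hrh3 call was lost without 1 h replicate 1 (adjusted p = 0.126), 1 h replicate 3 (0.131), 8 h replicate 2 (0.143) or 8 h replicate 3 (0.0930). The log2 fold changes of Hrh3 were 0.41 to 0.52 over the 6 fits that left out a library. The summed GABA neuron markers were 305 ± 76.7 CPM (SD, n = 3) at 1 h and 443 ± 110 CPM at 8 h. Of the 11 thalamic relay markers, Prkcd was called higher at 8 h than at 1 h (log2 0.34, edgeR adjusted p = 0.0409). Rgs16 was called lower (log2 -0.50, edgeR adjusted p = 0.0188), and the median of the relay markers was -0.05. The part of either set of markers in the Hrh3 difference was not tested.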

How the results depend on the processing

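Each comparison was fitted under 18 alternatives, of which legacy = FALSE in edgeR was chosen after seeing the data. No named member's called value reversed. At 1 h against 0 h, edgeR's exact test called 1 member (Adrb1) and the other alternatives 0. At 8 h against 0 h, library totals without TMM gave 1 member (Hrh3) and the Xist covariate 0. Between 8 h and 1 h, DESeq2 and the exact test gave 2 (Hrh3 and Adra1a), and leaving out 0 h replicate 2 and 1 h replicate 1, which hold the most Neurod6, gave 0. Leaving out 1 library at a time gave 0 members in every fit at 1 h, 0 to 2 at 8 h and 0 to 1 between 8 h and 1 h. The fit with 2 at 8 h, without 0 h replicate 2, called Hrh3 higher and Adra2a lower, and not Adrb1. The cause of these changes was not tested, and the fits that left out a library also had fewer samples. Hrh3 was called in 15 of 19 fits at 8 h against 0 h, and Adrb1 in 10 of 19. In that comparison the fit without the libraries highest in Neurod6 is the same as that without 0 h replicate 2, and both are counted.

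Over all genes, the alternatives called 0 to 17 genes at 1 h, 33 to 269 at 8 h and 20 to 199 between 8 h and 1 h, where the reported counts were 2, 90 and 94. DESeq2 called 14, 269 and 196, and edgeR's exact test 17, 269 and 199.

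Whether the replicate numbers pair the libraries was not settled by these values. Deviations of same-numbered libraries correlated between -0.281 and 0.280 over 11413 genes, and those of differently numbered libraries between -0.2805 and 0.366. The pairs numbered 3 were all positive, at 0.280, 0.128 and 0.209, whereas those numbered 1 and those numbered 2 had both signs. With the number as a replicate block, 0 members were called at 1 h, 2 at 8 h and 1 between 8 h and 1 h. Over all genes the block gave 0, 158 and 75 calls, against 2, 90 and 94 without it.

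The 12 receptor genes and Chrna1os that failed the low-count filter could not be compared at this depth, the shallowest library being 0 h replicate 1. Bulk RNA, 3 libraries per light time and unequal RNA of neighbouring tissue limit the values of low genes most.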
